A study of Mus musculus with 2 samples.

Results

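Genes of the cell cycle were followed across the cells of mouse colon crypts in Drop-seq data. The 52 genes were taken as a list of symbols, and all 52 had a row among the 19294 genes of the count matrix. They were divided by function into 20 genes of DNA replication, 29 genes of mitosis and chromosome segregation, and 3 genes (Hmgb2, H2afz and Stmn1) that many cells express and that are higher in dividing cells. The values are unique molecular identifiers (UMIs), each of which counts 1 captured transcript, in single cells.

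Before a cell divides it copies its DNA. The MCM helicase opens the double strand, polymerase alpha with its primase starts new strands, Pcna holds the polymerases on the DNA, and Fen1 and Lig1 join the pieces, while other enzymes supply nucleotides. Transcription of many replication genes is driven by E2F factors at the start of S phase. The cyclin and CDK genes, spindle motors, kinetochore proteins and condensins are transcribed later, mostly in G2 and mitosis, many of them through a CHR element and CCAAT boxes in their promoters. In the colon, cell division takes place in the lower part of the crypt, among stem cells and transit amplifying cells, and stops as cells differentiate.

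The mice were untreated Tcf4GfpCre/+ RosamTmG/+ animals on C57BL/6, aged 4 to 10 months. Cre is expressed from the Tcf4 locus (the gene now named Tcf7l2) and turns the reporter from a red to a green membrane protein, so that cells which never expressed the driver stay red (Tcf4 Lin-) and cells that still hold the red protein after the switch carry both colours (MIX, or DP in the labels). Sorted Lin- and MIX cells of dissociated crypts were each mixed with human cells and captured in droplets. The labels give a pool of samples 1 to 3 and a pool of samples 4 to 6, and 1 matrix holds both. Cell barcodes carry the suffix X1 (454 of the 516 cells used) or X2 (62), which no label ties to a pool or a sort, and no barcode sequence occurs in both sets. All cells were therefore 1 sample without replicates, no test between conditions was possible, and every interval below covers counting error only.

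The authors' cell lists place 516 of the 1117 barcodes in 4 clusters: 190 natural intraepithelial lymphocytes (nIELs), 186 induced intraepithelial lymphocytes (iIELs), 93 epithelial Pigr+ cells and 47 B cells. A separate list places 106 cells in 3 epithelial subclusters, with 32 stem cells (69046 UMIs, median 995.5 per cell), 32 secretory precursors (128664 UMIs, median 1820.5) and 42 absorptive precursors (151780 UMIs, median 1939.5). Set X2 gave 15 of the stem cells, with 43357 of their UMIs, but only 4 secretory and 8 absorptive precursors. Folds over all cells are thus partly a comparison between the sets, and folds in set X2 alone rest on few precursor cells. Both clusterings were made from the expression of these same cells, so a difference between clusters is a description. The lists differ for 14 cells, which the subcluster list calls epithelial and the cluster list calls IELs. Among these is the deepest stem cell, with 23205 UMIs or 33.6% of all stem cell UMIs, and results are also given without it. Of 8 epithelial markers 7 had UMIs in the stem cells, at 22246 UMIs per 1000000 (CPM), with Krt20 at 0, and all 7 T lymphocyte markers were at 0 there. Of 6 B lymphocyte markers only Cd74 had UMIs, 12 in 8 stem cells. Goblet markers were at 20074 CPM in the stem cells, in 18 of the 32, with 1149 of the 1386 UMIs in a single cell. They were at 67665 CPM in secretory and 4559 CPM in absorptive precursors. Lgr5, Ascl2, Smoc2 and Cdca7, markers of crypt base columnar cells, were summed with Lrig1, which the authors list among quiescent stem cell markers. The sum was 420.0 CPM in stem cells, against 85.5 CPM in secretory and 125 CPM in absorptive precursors. These were only 29, 11 and 19 UMIs, and the 29 lay in 18 of the 32 stem cells. The authors report Lgr5 as rare and minimal, Ascl2 as absent, and Cdca7 and Smoc2 as modest in the stem cells. In these counts all 5 genes had UMIs in the stem cells, and Ascl2 had none in either precursor type. They propose that the population is distinct from crypt base columnar cells. Below, 3 values given together for a gene follow the order stem cells, secretory precursors, absorptive precursors, and a fold without further words is the level in stem cells over that in the other epithelial cells. The iIEL cluster held epithelial markers at 7380 CPM, since 11 of its cells are also in the epithelial list, and beside 18367 CPM of B lymphocyte markers the B cell cluster held T lymphocyte markers at 2216 CPM.

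Because the replication and mitosis genes are read from different promoters, promoter sequences of members of both groups are shown first (RefSeq, GRCm38.p6). Each is the 250 bases before a RefSeq transcript start, 5′ to 3′ on the gene's strand, and those of Lig1 and, in part, Pcna and Cdk1 lie within the span that GENCODE gives for the gene. Pcna, Lig1, Top2a and Smc2 had the most UMIs over the assigned cells among members of their group with a window. Smc4 had more UMIs (293) but no window. Mcm5, Cdk1 and Mki67 were chosen after the motif search because of what it found. The windows are Pcna at chr2:132253181-132253430 (minus strand), Lig1 at chr7:13278576-13278825 (plus strand), Mcm5 at chr8:75109259-75109508 (plus strand), Top2a at chr11:99024190-99024439 (minus strand), Smc2 at chr4:52438971-52439220 (plus strand), Cdk1 at chr10:69352913-69353162 (minus strand) and Mki67 at chr7:135716380-135716629 (minus strand). Capitals mark matches on either strand to the E2F motif (TTTCCCGC, TTTCGCGC, TTTGCCGC or TTTGGCGC), the CHR motif (TTTGAA or TTCGAA) and the CCAAT box (CCAAT).
Pcna: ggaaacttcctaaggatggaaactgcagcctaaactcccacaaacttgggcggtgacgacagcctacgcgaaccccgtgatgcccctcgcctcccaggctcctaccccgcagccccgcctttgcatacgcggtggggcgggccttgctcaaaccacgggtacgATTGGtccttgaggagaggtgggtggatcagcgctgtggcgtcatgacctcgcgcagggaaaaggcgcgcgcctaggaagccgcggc
Lig1: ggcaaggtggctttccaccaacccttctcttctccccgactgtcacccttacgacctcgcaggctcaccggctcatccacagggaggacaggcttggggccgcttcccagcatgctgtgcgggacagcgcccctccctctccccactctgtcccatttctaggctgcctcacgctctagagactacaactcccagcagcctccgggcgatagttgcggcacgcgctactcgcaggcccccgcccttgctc
Mcm5: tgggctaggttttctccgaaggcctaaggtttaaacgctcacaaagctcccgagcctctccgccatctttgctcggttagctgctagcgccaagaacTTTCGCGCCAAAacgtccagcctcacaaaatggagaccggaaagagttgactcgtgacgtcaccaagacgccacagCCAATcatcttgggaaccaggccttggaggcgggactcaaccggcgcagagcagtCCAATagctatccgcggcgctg
Top2a: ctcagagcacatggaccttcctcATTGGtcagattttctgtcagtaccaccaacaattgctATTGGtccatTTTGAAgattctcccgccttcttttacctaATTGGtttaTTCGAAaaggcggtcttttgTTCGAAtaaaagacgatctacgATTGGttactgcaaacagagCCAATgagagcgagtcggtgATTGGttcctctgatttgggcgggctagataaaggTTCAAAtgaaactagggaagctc
Smc2: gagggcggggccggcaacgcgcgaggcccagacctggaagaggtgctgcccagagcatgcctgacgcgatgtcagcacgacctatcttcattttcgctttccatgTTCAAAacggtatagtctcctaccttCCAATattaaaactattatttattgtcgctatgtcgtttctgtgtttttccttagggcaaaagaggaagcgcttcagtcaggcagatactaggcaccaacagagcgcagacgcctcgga
Cdk1: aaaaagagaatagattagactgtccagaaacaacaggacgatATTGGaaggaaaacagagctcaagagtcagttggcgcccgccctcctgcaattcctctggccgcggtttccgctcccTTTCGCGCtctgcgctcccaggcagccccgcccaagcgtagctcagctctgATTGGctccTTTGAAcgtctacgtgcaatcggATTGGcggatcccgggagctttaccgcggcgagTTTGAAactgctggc
Mki67: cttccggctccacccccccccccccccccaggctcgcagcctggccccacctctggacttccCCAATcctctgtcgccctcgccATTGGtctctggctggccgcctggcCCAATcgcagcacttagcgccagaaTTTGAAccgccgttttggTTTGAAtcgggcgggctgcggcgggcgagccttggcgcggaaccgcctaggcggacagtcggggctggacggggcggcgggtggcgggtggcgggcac

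In these sequences the E2F motif is found in Mcm5 (2 overlapping matches on opposite strands) and Cdk1, and the CHR motif in Top2a (4 matches), Mki67 (2), Cdk1 (2) and Smc2 (1). The CCAAT box occurs 6 times in Top2a, 3 times each in Cdk1 and Mki67, 2 times in Mcm5 and once each in Pcna and Smc2, and the Lig1 window holds no match. Over windows of 300 bases (250 before and 50 after the start), the table covers 18 replication and 24 mitosis genes. The E2F motif was present in 9 of 18 replication genes (50%), in 1 of 24 mitosis genes (4.17%, Cdk1) and in 2.60% of all 27025 genes with a window. The 9 genes were Mcm3, Mcm5, Mcm6, Mcm7, Lig1 (in another of its 3 windows), Pola1, Uhrf1, Dnmt1 and Hells. The CHR motif was present in 4 of 18 replication genes (22.2%), in 18 of 24 mitosis genes (75%) and in 21.7% of all genes. A CCAAT box was present in 66.7% of replication genes, 87.5% of mitosis genes and 41.1% of all genes, and each of the 18 mitosis genes with a CHR motif had one. These letter matches describe the sequences and do not show that a factor binds there. Mcm4, Gins2, Ccna2, Aurkb, Kif20a, Tpx2, Smc4, H2afz and Stmn1 had no window in the table.

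**Figure D1:**
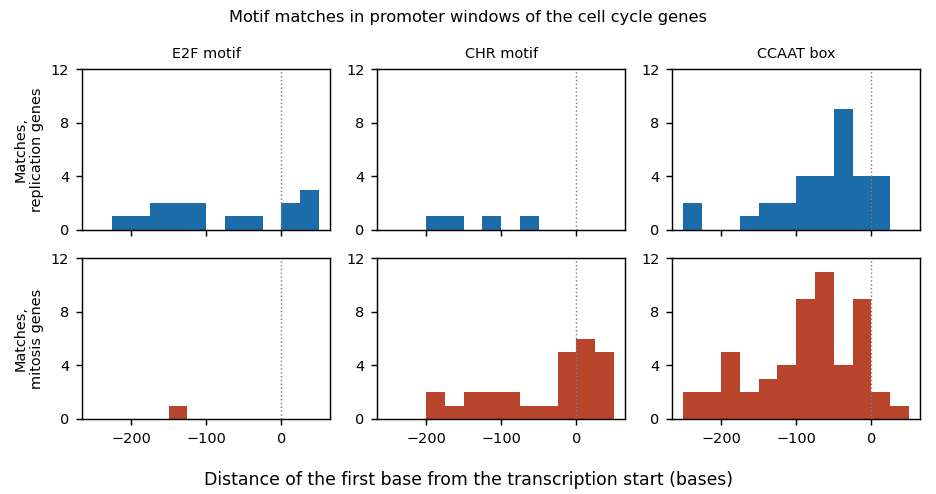
Matches to the 3 motifs in the promoter windows of replication genes (top, blue) and mitosis genes (bottom, red), with the distance of the first base of the match from the transcription start in bases on the x axis and the number of matches on the y axis. Among mitosis genes there is 1 E2F match, in Cdk1, while CHR matches occur in 18 of 24 genes.

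Whether the epithelial stem cells of the crypt carry more transcripts of the replication machinery than their presumed progeny was asked first. The 20 replication genes together had 102, 24 and 44 UMIs in the 3 subclusters. These were 1477 CPM (95% interval 1205 to 1793), 187 CPM (119.5 to 278) and 289.9 CPM (211 to 389), so that stem cells stood apart from both precursor types by more than the counting error. The level in stem cells was 6.09-fold that of the other epithelial cells (4.44 to 8.41), and 6.31-fold in barcode set X1 and 5.78-fold in set X2. Against each precursor type it was 7.92-fold (5.04 to 12.9) for secretory and 5.10-fold (3.55 to 7.43) for absorptive precursors. The precursor types differed less from each other, by 1.55-fold with an interval of 0.925 to 2.67. Without the deepest cell the stem cells held 74 replication UMIs at 1614 CPM.

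Lig1, DNA ligase I, which seals Okazaki fragments (chromosome 7, 13277283 to 13311433 on GRCm38), had 21, 2 and 2 UMIs. Its UMIs lay in 10 of 32 stem cells, with at most 4 in a cell, and in 1 cell of each precursor type. The fold over the other epithelial cells was 21.3 (7.19 to 85.4), and 17.8 without the cell with the most Lig1 UMIs. Hells, a chromatin remodeller that helps to keep DNA methylated after replication (chromosome 19, 38930915 to 38971051), had 14 UMIs in 7 stem cells, 2 UMIs among secretory precursors and none among absorptive ones, a fold of 28.4 (6.53 to 258). Dnmt1, the methyltransferase that copies methylation onto the new strand, had 7, 2 and 1 UMIs in the same order, a fold of 9.48 (2.16 to 56.8). Together with Uhrf1, which recruits Dnmt1, the 3 genes that maintain methylation had 24 UMIs in stem cells against 5 and 2, or 13.9-fold the other epithelial cells (5.82 to 38.3). In set X2 alone the fold of Lig1 was 4.96, and Dnmt1 and Hells, which had no UMI in the X2 precursors, allowed only bounds, of at least 1.84 and at least 2.57.

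The helicase, polymerase and ligase genes summed to 58, 14 and 29 UMIs, 5.48-fold in stem cells (3.63 to 8.33), but single genes varied. Mcm7, a helicase subunit, had 9, 0 and 8 UMIs, a fold of 4.57 (1.56 to 13.6). The other helicase subunits named by the rule, Mcm4 and Mcm6, had only 1 and 2 UMIs in stem cells. Pcna, the sliding clamp (chromosome 2, 132249162 to 132253314), did not share the pattern: it had 4, 4 and 11 UMIs, a fold of 1.08 whose interval began at 0.262. Of the genes that supply nucleotides, Tyms, thymidylate synthase, had 5, 2 and 6 UMIs (fold 2.54, 0.653 to 8.80), Dut, which removes dUTP, had 5, 2 and 4 (3.38, 0.817 to 13.3), and Rrm1, a ribonucleotide reductase subunit, had 4, 0 and 2. The intervals of Pcna, Tyms and Dut included 1, so that no difference was detectable for these at this depth. The 10 replication genes with fewer UMIs had 1 to 8 UMIs each over the 3 subclusters, and summed to 30 UMIs in stem cells against 9 and 9. Among them Mcm5, a helicase subunit, with 7, 0 and 1 UMIs, and Pola1, the catalytic subunit of polymerase alpha, with 6 UMIs in stem cells and none elsewhere in the epithelium, were picked out after their values were seen.

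The 29 mitosis genes had 269, 120 and 235 UMIs in the same order. The levels were 3896 CPM (3444 to 4390), 933 CPM (773 to 1115) and 1548 CPM (1357 to 1759), and no interval overlapped another. Stem cells were 3.08-fold above the other epithelial cells (2.62 to 3.62), with 4.09-fold in set X1 and 2.11-fold in set X2. Here the precursors differed from each other as well, absorptive precursors being 1.66-fold above secretory precursors (1.33 to 2.09). The stem cells were 4.18-fold above secretory precursors (3.36 to 5.22) and 2.52-fold above absorptive precursors (2.10 to 3.01). Both folds were below the intervals of the replication folds, 5.04 to 12.9 and 3.55 to 7.43. The intervals themselves overlapped for secretory but not for absorptive precursors. Without the deepest cell the stem cells held 215 mitosis UMIs at 4690 CPM.

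The chromosome genes carried the most UMIs. Mki67, whose protein coats mitotic chromosomes and is widely used to mark cycling cells (chromosome 7, 135689784 to 135716361), had 38, 13 and 24 UMIs, a fold of 4.17 (2.58 to 6.75). A UMI was found in 13 of 32 cells (40.6%), 3 of 32 (9.38%) and 7 of 42 (16.7%), against 4 of the 362 IELs outside the epithelial list (1.10%, median 1038 UMIs). Top2a, topoisomerase II alpha, which untangles sister chromatids (chromosome 11, 98992943 to 99024189), had 46, 20 and 23 UMIs, a fold of 4.35 (2.80 to 6.74). Of the 46 Top2a UMIs, 16 came from the deepest stem cell. Smc2 and Smc4, the core subunits of condensin, had 22, 12 and 5 UMIs and 30, 22 and 36 UMIs, with folds of 5.26 (2.67 to 10.5) and 2.10 (1.30 to 3.32). All 4 genes were higher in stem cells, Smc4 the least.

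Among cyclins and their partners, Ccna2, the cyclin of S phase and G2, had 9, 2 and 5 UMIs (fold 5.22, 1.73 to 16.5) and Cdk1, the kinase that drives mitosis, had 6, 2 and 2 (6.09, 1.44 to 29.4). Cdca3, a trigger of mitotic entry, had 8, 3 and 3 UMIs (5.42, 1.65 to 18.9), of which 5 lay in 1 cell. Other genes of this set were well represented in absorptive precursors. Ube2c, the ubiquitin-conjugating enzyme of the anaphase-promoting complex, had 14, 1 and 18 UMIs, at 203, 7.77 and 119 CPM. Its fold was 2.99 (1.39 to 6.30), and 0.787 in set X2 alone, with an interval of 0.197 to 2.88. Ccnb2, a B-type cyclin, had 3, 1 and 7 UMIs, and Cks2, a small CDK subunit, had 1, 3 and 12, a fold of 0.271 (0.00643 to 1.76). Summed over this set, absorptive precursors were 3.96-fold above secretory precursors (2.10 to 8.11), but few cells weighed heavily. Of the 18 Ube2c UMIs of absorptive precursors, 7 lay in 1 cell and 6 in another. The 3 highest absorptive cells held 55.7% of the UMIs of all mitosis genes there.

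Birc5, the survivin subunit of the chromosomal passenger complex, had 19, 10 and 21 UMIs, and its partner Cdca8 had 9, 3 and 8. Their folds were 2.49 (1.33 to 4.55) and 3.32 (1.22 to 8.82). Kif11, the motor that pushes spindle poles apart, had 4, 2 and 4 UMIs and an interval that included 1 (0.562 to 11.4). At the kinetochore, Cenpf had 22, 9 and 16 UMIs (fold 3.57, 1.92 to 6.61), the motor Cenpe 8, 7 and 5, the centromeric histone Cenpa 4, 2 and 6, and the checkpoint gene Mad2l1 4, 2 and 7. Of these 4 only Cenpf had an interval above 1, and the Cenpa fold of 2.03 was 0.551 in set X2 alone (0.0498 to 3.84). The 12 mitosis genes with fewer UMIs had 2 to 9 UMIs each over the subclusters, and summed to 22, 6 and 33 UMIs.

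The broadly expressed genes differed less, with a sum of 1188, 559.6 and 1166 CPM and a fold of 1.34 (1.03 to 1.72). Hmgb2, a chromatin protein of dividing cells, had 57, 35 and 129 UMIs, at 826, 272 and 849.9 CPM, and was lowest in secretory precursors. Its fold was 1.41 (1.03 to 1.92), but the barcode sets went opposite ways. It was 2.46 in set X1 alone (1.63 to 3.62) and 0.649 in set X2 alone (0.370 to 1.11). Of the 129 Hmgb2 UMIs of absorptive precursors, 28 lay in a single cell and 24 in another. H2afz, a histone variant, had 15, 30 and 34 UMIs, at 217, 233 and 224 CPM. Stmn1, which destabilises microtubules, had 10, 7 and 14 UMIs, at 145, 54.4 and 92.2 CPM, a fold of 1.93 (0.813 to 4.29).

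Over all members, 27 had at least 10 UMIs in the 3 subclusters. Of these, 20 were at least 2-fold higher in stem cells (6 of 7 replication genes, 14 of 17 mitosis genes and none of the 3 others), where 18% of all 5325 genes with as many UMIs were. Only Cks2 was at least 2-fold lower, against 15.8% of all genes. The median fold of the 27 was 2.99 and that of all genes 1.02. With no minimum on UMIs, 37 of the 52 members were at least 2-fold higher, and 20.7% of all 14542 genes with a UMI were. In secretory precursors 22 of the 27 were at least 2-fold lower (22% of all genes) and none was as much higher (11%). In absorptive precursors 2 were higher, Ccnb2 and Cks2 (7.41%, all genes 14.7%). There 8 were lower (29.6%, all genes 15.6%), 3 of them replication genes (Lig1, Dnmt1 and Hells). Because a gene passes the minimum more easily where it is high, these counts describe the members with UMIs and not the whole list.

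**Figure D2:**
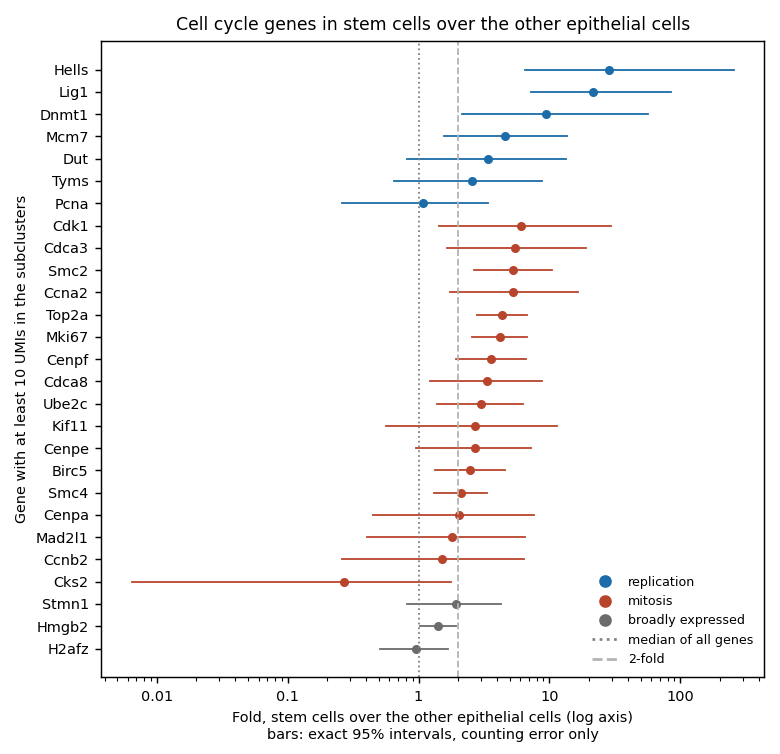
Fold of the level in stem cells over the other epithelial cells (x axis, log scale) for the 27 members with at least 10 UMIs in the subclusters, with exact 95% intervals. Hells (28.4), Lig1 (21.3) and Dnmt1 (9.48) lie farthest to the right, most mitosis genes lie between 2 and 7, and Cks2 lies below 1.

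How the UMIs were spread over cells was examined next. At least 1 replication UMI was in 21 of 32 stem cells (65.6%, 46.8% to 81.4%), 9 of 32 cells on the secretory side (28.1%) and 18 of 42 on the absorptive side (42.9%), against 39.2% of the IELs outside the epithelial list. For mitosis UMIs the numbers were 26 (81.2%, 63.6% to 92.8%), 20 (62.5%) and 27 cells (64.3%), against 41.2% of those IELs. Stem cells had the highest share although they were the shallowest of the subclusters. To remove depth, each cell with at least 800 UMIs was thinned to 800, which left out 9, 3 and 6 cells of the 3 subclusters. The shares with a mitosis UMI were then 84.4%, 35.8% and 43.9%, and those with a replication UMI 56.7%, 11.4% and 20.6%. Thinned, the mean was 3.62 mitosis and 1.11 replication UMIs per stem cell, against 0.884 and 0.132 in secretory and 1.36 and 0.254 in absorptive precursors.

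**Figure D3:**
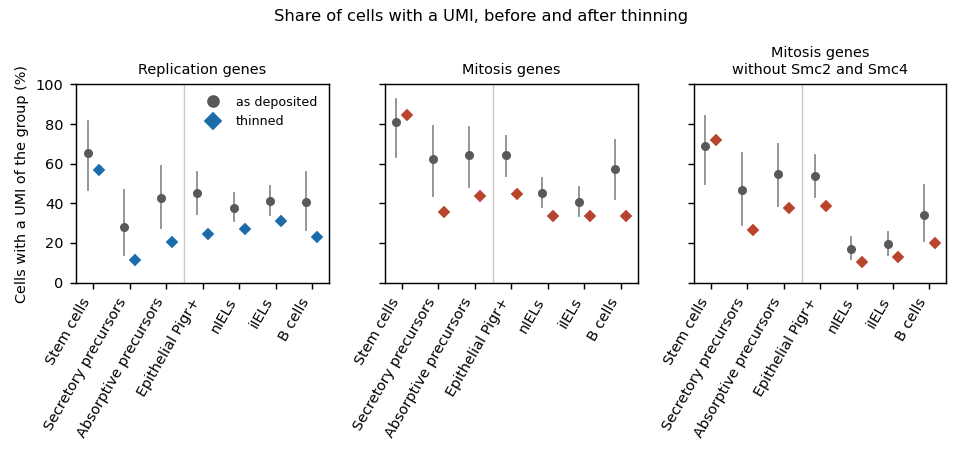
Share of cells with at least 1 UMI of the replication genes, the mitosis genes, and the mitosis genes without Smc2 and Smc4, in the 3 subclusters (left of the line) and 4 clusters. Circles give the deposited counts with exact 95% intervals and diamonds the cells thinned to 800 UMIs (subclusters) or 700 UMIs (clusters), with shallower cells left out, and stem cells are highest in every panel.

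Most of the UMIs came from few cells. Of the 371 replication and mitosis UMIs of the stem cells, 86.0% lay in the 12 cells (37.5% of them) that had 10 or more. Such cells numbered 3 of 32 among secretory precursors (9.38%) and 8 of 42 among absorptive precursors (19.0%), and the 3 highest cells held 66.7% of the mitosis UMIs of secretory precursors and 55.7% of those of absorptive precursors. A stem cell of set X2 with 4600 UMIs had 15 replication and 52 mitosis UMIs, with 11 of Mki67, 9 of Top2a and 3 of Lig1. The deepest stem cell had 28 and 54, and also 213 Muc2 UMIs. Other stem cells had mitosis UMIs with few or no replication UMIs, such as 4 and 38 in a cell with 4749 UMIs, 1 and 16 in a cell with 1390, and none and 12 in a cell with 2868. An absorptive precursor with 5546 UMIs had 3 replication and 68 mitosis UMIs, and another with 4120 UMIs had none and 39. A secretory precursor with 8494 UMIs had 5 and 57, beside 140 UMIs of the goblet mucin Muc2. Cells with many mitosis and few replication UMIs were thus found in all 3 subclusters.

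Counted by cell, 18 of 32 stem cells had UMIs of both groups, 8 of mitosis genes only, 3 of replication genes only and 3 of neither. Among absorptive precursors these were 15, 12, 3 and 12 of 42 cells, and among secretory precursors 8, 12, 1 and 11 of 32 cells. Mki67 and Top2a were found together in 14 cells of the subclusters, of 23 with each. Lig1 and Hells were together in 6 cells, all of them stem cells, of 12 with Lig1 and 9 with Hells. Of the 23 Mki67 cells, 19 also had a UMI of the transcription factor Klf5, 8 of Klf4 and 10 of Sox4, which 67, 43 and 27 of the 106 cells carried.

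**Figure D4:**
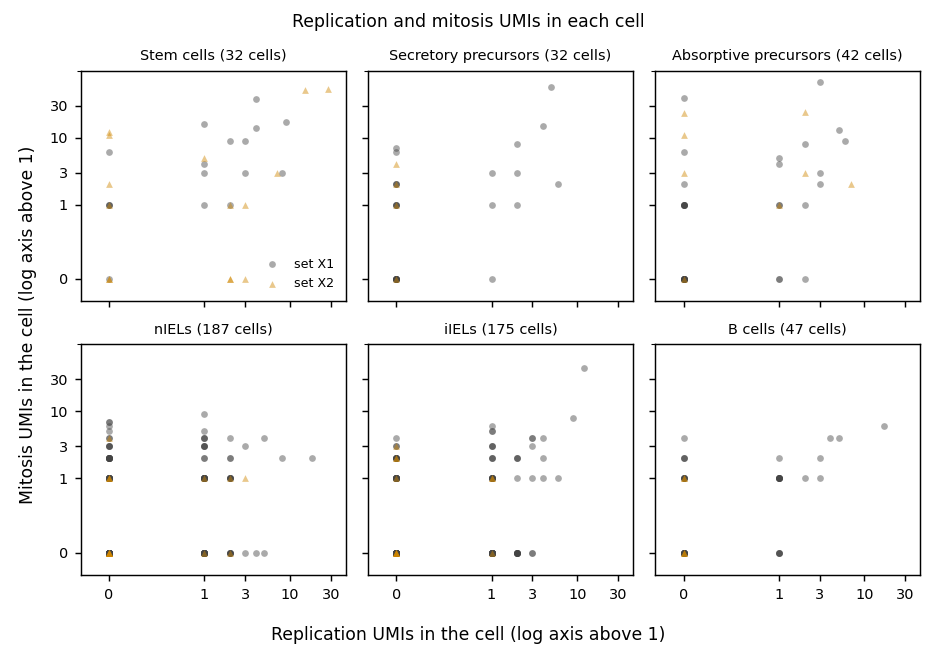
Replication UMIs (x axis) and mitosis UMIs (y axis) in each cell, on axes that are logarithmic above 1, with a panel for each epithelial subcluster and for the nIELs, iIELs and B cells outside the epithelial list, circles for set X1 and triangles for set X2. The stem cells with 28 and 54 and with 15 and 52 UMIs lie farthest toward the upper right, and 1 iIEL with 12 replication and 45 mitosis UMIs stands above the other lymphocytes.

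Over the 4 clusters of all cells the groups of genes behaved differently. The replication genes were at 495 CPM in epithelial Pigr+ cells (412 to 591), 535 CPM in nIELs (447 to 636), 619 CPM in iIELs (531 to 718) and 613 CPM in B cells (450.2 to 815). Epithelial cells were 0.847-fold the other clusters, with an interval (0.684 to 1.04) that included 1, and the barcode sets lay on either side of 1, at 0.701 in X1 (0.538 to 0.903) and 1.25 in X2 (0.801 to 1.95). The mitosis genes were at 2098 CPM in epithelial cells (1922 to 2286), 746 CPM in nIELs, 954 CPM in iIELs and 599.6 CPM in B cells, and the epithelial level was 2.54-fold the others (2.25 to 2.88), 2.79-fold in set X1 and 1.44-fold in set X2. The broadly expressed genes were at 1059 CPM in epithelial cells and between 587 and 841 CPM in the other clusters.

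Much of the lymphocytes' mitosis signal was condensin. Smc4 (chromosome 3, 69004738 to 69034623) had 109 of the 181 mitosis UMIs of the nIELs, in 56 cells, and 96 of the 271 of the iIELs, in 49 cells, at 449 and 338 CPM against 282 CPM in epithelial cells and 235 CPM in B cells. In cells outside the epithelial list Smc4 was at 446 CPM in nIELs (365 to 539) and 432 CPM in iIELs (343 to 538). There it had 80 of the 173 mitosis UMIs of the iIELs. Smc2 had 31 UMIs in nIELs and 19 in iIELs. Without Smc2 and Smc4 the mitosis genes were at 169 CPM in nIELs (121 to 229), 549 CPM in iIELs and 326 CPM in B cells against 1688 CPM in epithelial cells, and the epithelial fold became 4.59 (3.89 to 5.42). Mki67 had 73 UMIs in epithelial cells, none in the 190 nIELs, which allows a share of up to 1.58% of cells with a UMI, 8 in iIELs and 3 in B cells. Cenpf had 45, 0, 9 and 0 UMIs and Ube2c 29, 0, 5 and 0 in the same order. For Top2a these were 71, 5, 28 and 3 UMIs. The deepest stem cell is an iIEL in the cluster list. It held 16 of the 28 Top2a UMIs of the iIELs, 4 of the 5 of Ube2c, 2 of the 8 of Mki67 and 1 of the 9 of Cenpf.

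Of the 37 members with at least 10 UMIs over the 4 clusters, 18 (48.6%) were at least 2-fold higher in epithelial cells, 14 of them mitosis genes. Among all 9022 genes with as many UMIs the share was 21.8%. At least 2-fold lower there were 5 members (13.5%), a smaller share than the 22.8% of all genes. These 5 were replication genes, Mcm2, Mcm4, Mcm6, Rrm1 and Dut. In nIELs 18 members were lower (48.6%, all genes 22.1%) and 2 were higher, Mcm4 and Mcm6 (5.41%, all genes 12.2%). In iIELs 9 were lower (24.3%, all genes 11.7%) and 1, Mcm2, was higher (2.70%, all genes 6.25%). In B cells 7 were lower (18.9%, all genes 13.7%) and 3 were higher, Mcm2, Pola1 and Tpx2 (8.11%, all genes 12.9%). The shares of higher members in nIELs, iIELs and B cells were thus below those of all genes.

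Some replication genes had their highest level among the clusters outside the epithelium, among them the clamp and a pair of helicase subunits, whereas Mcm7 was highest in epithelial cells, with 11 UMIs (44.3 CPM) against 5, 10 and 0 in nIELs, iIELs and B cells. Pcna had 24 UMIs in nIELs (98.9 CPM), 36 in iIELs (127 CPM), 18 in epithelial cells (72.5 CPM) and 9 in B cells (117 CPM). Mcm4 and Mcm6 had 14 UMIs each in nIELs, 2 and 8 in iIELs, 1 and 4 in epithelial cells and 3 each in B cells. Of the nIEL UMIs, 4 of Mcm4 and 6 of Mcm6 came from a single cell with 3481 UMIs that had 18 replication and 2 mitosis UMIs. Rrm1 had 7, 9, 2 and 2 UMIs in nIELs, iIELs, epithelial and B cells, Dut 12, 14, 6 and 4, Tyms 5, 13, 10 and 3, and Dnmt1 6, 16, 7 and 4. Lig1 went the other way, with 24 UMIs in epithelial cells against 10, 9 and 5, and so did Hells, with 11 against 2, 9 and 1.

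**Figure D5:**
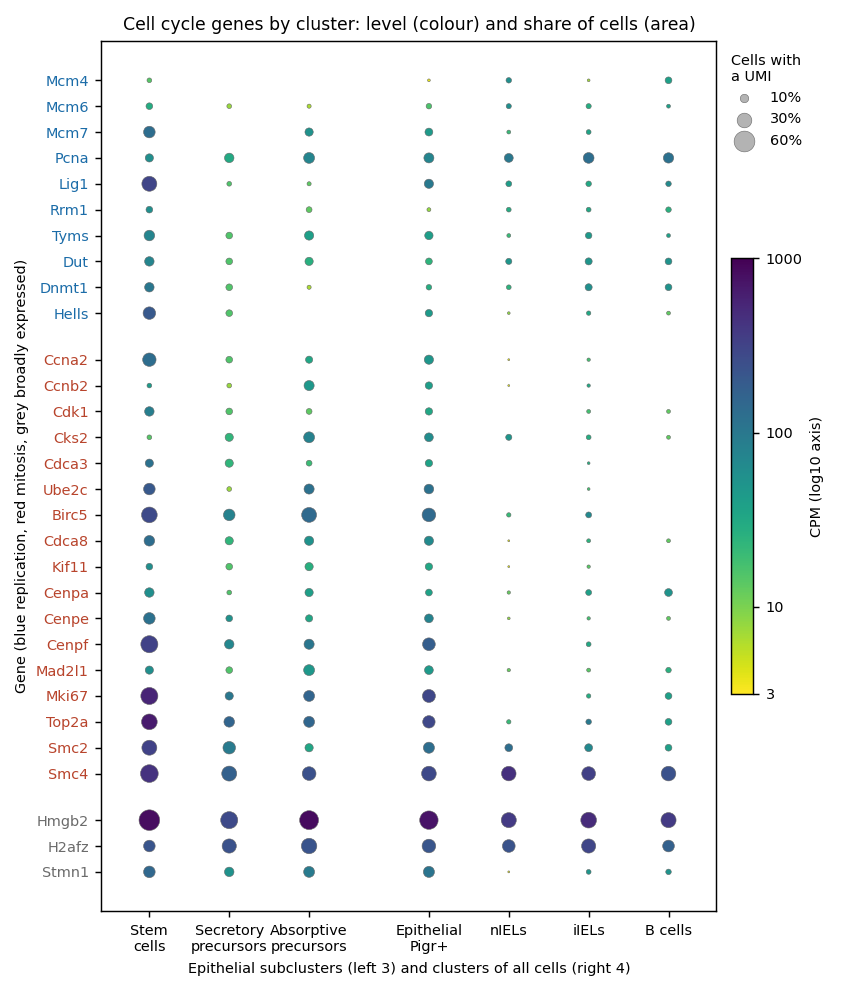
Level in CPM (colour, log scale) and share of cells with a UMI (area of the dot) for the 30 named members in the 3 epithelial subclusters and the 4 clusters, with no dot where no UMI was found. The mitosis genes are mostly empty or small in nIELs and B cells apart from Smc2 and Smc4, while Pcna is present in all 7 columns.

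The iIEL values include 11 cells of the epithelial list. Without those cells the iIELs had 128 replication UMIs at 691 CPM (577 to 822) and 173 mitosis UMIs at 934 CPM. A single iIEL of set X1 with 2052 UMIs had 12 replication and 45 mitosis UMIs, or 27.8 per 1000, the highest such value among the 29 assigned cells with 10 or more UMIs of the 2 groups. It had 24 UMIs of T lymphocyte markers and none of epithelial ones. Left out, the mitosis genes were at 699 CPM in these iIELs, and without Smc2 and Smc4 at 240.3 CPM, against 437 CPM with it. In B cells 1 cell with 2003 UMIs held 17 of the 47 replication UMIs, with 3 of Pcna, 4 of Lig1 and 3 of Mcm6. The markers of germinal centre B cells with a row, Bcl6, S1pr2, Rgs13, Fas and Gcsam, had 12 UMIs in the B cell cluster (156 CPM, 14.9% of cells) and 15 in nIELs (61.8 CPM, 7.37% of cells), with Gcsam at 0 in B cells.

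Further genes of the pathway, which are no members, were counted in the same way. Of 32 other replication genes 9 had at least 10 UMIs in the subclusters, and 6 of them were at least 2-fold higher in stem cells (18% of all genes), where the sum of the list was 2.61-fold (2.05 to 3.30). Nasp, a histone chaperone, had 14, 3 and 9 UMIs and Rfc2, a subunit of the clamp loader, 14, 2 and 13, while Rfc1, another subunit, had 15, 25 and 15. Of 38 other mitosis genes 12 had as many UMIs and 8 were higher (sum 2.34-fold, 1.84 to 2.96), with Kif15, a spindle motor, at 12, 0 and 2 UMIs. The set of G1 cyclins and their kinases differed less, at 1549.7, 839 and 1166 CPM, a fold of 1.52 (1.21 to 1.91). Of its 5 genes with at least 10 UMIs, 2 were at least 2-fold higher in stem cells (18% of all genes) and 1 was lower (15.8%). Ccnd2 alone, the D cyclin with the most UMIs, had 63, 63 and 129 UMIs, which are counts not scaled for depth. Of 4 inhibitors with at least 10 UMIs, 2 were at least 2-fold lower in stem cells (15.8% of all genes), and 1 had a fold above 1. The lower ones were Cdkn1a, which encodes p21, with 0, 18 and 11 UMIs, the 18 in 3 cells, and Btg2 with 1, 27 and 3. The inhibitors together were at 304, 552 and 382 CPM, a fold of 0.661 with an interval that included 1 (0.396 to 1.05). They were at 1438 CPM in nIELs, where Btg1 had 190 of 349 UMIs. The 9 transcription factors of the cell cycle on the list (E2F family, Foxm1, Mybl2 and Myc) had only 15, 14 and 6 UMIs in all, a fold of 3.05 (1.45 to 6.26), and Myc alone had 5, 5 and 1.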

How the data were processed

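Single crypt cells were profiled by Drop-seq in both pools. The authors deposited raw UMI counts, 1 whole number for each gene and barcode, from the Drop-seq pipeline. STAR 2.5.0 and Picard 1.137, with mm10 and hg19 as builds, are named in the notes of the submitters. The gene annotation, the use of strand, the treatment of reads shared with pseudogenes and the removal of doublets before deposit are not given in the sources used here. Of the 52 members, 11 overlap a protein-coding gene on the other strand (among them Lig1, Mcm7, Ccna2, Ube2c and Cdca8), and without strand their reads could not be told apart.

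Cells were joined by barcode to the authors' cluster lists, and no doublet caller was run. The UMIs of all cells in a cluster were added and scaled to 1000000 (CPM), with 95% intervals from the Poisson distribution. Folds set the cells of 1 cluster against all others in that list, and their intervals are exact binomial ones. Where a count was 0, 3 was used in its place and the fold is a bound. Shares of cells had exact Clopper-Pearson intervals, and thinned shares were computed exactly from the hypergeometric distribution. PCR reads are collapsed to UMIs, and intervals cover counting error only. Members were counted at a 2-fold difference with at least 10 UMIs in the compared cells, beside all genes under the same rule. No test was possible with 1 sample. Members with at least 10 UMIs in the subclusters or 20 in the assigned cells (30 of 52) were named with values and the others summed. The members and all lists were chosen with earlier results of these data known. Positions came from GENCODE M21 (GRCm38) and promoters from RefSeq. Alternatives were another level or total, each barcode set, cells left out, related barcodes joined, other minimums and members left out. Python 3.11.15, numpy 2.4.6, scipy 1.17.1, pandas 2.3.3 and matplotlib 3.10.9 were used. The total was 1023641 UMIs, with 504 to 23205 per assigned cell. Of the pathway genes that are no members, only some are given singly, and 1 that would be is not reported here.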

Additional observations from a re-analysis of the deposited data

Results flagged for a closer look

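UMIs assigned to the members were also present in the 601 barcodes that are in none of the authors' lists, where no cell type is assigned. Their median depth was 212 UMIs, with a mitochondrial share of 36.8%, which was 3.83% for assigned cells. They held 94 replication UMIs (547 CPM) in 73 barcodes, 217 mitosis UMIs (1264 CPM) in 134 barcodes, and 115 UMIs of the broadly expressed genes (669.6 CPM) in 86 barcodes, all above the 3 counts that a count of 0 allows. Of the mitosis UMIs, 90 were of Birc5, or 41.5%, in 65 barcodes of set X1 with at most 4 in each. This was 524 CPM, against 275 CPM in stem cells, and more UMIs than the 59 in all assigned cells. The barcodes with Birc5 had a median of 322 UMIs and 54.0% mitochondrial UMIs, against 31.9% in those without. Without Birc5 the mitosis genes had 127 UMIs there (739.5 CPM). The part of depth and mitochondrial content in this was not tested, and whether these UMIs are transcripts of Birc5 could not be settled from the counts.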

How the results depend on the processing

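The 6 main results kept their direction under the alternatives tried, except that the epithelial level of the replication genes over the other clusters, 0.847 as reported, was 1.22 as a mean of each cell's own CPM and 1.25 in set X2 alone. Its interval, which included 1, lay below 1 in set X1 (0.701, 0.538 to 0.903), with totals without mitochondrial and ribosomal protein genes (0.786, 0.635 to 0.968) and without Lig1 (0.732, 0.578 to 0.918). The stem cell fold of the mitosis genes (3.08) was 4.09 in set X1, 2.11 in set X2, 3.73 without the cell with the most of their UMIs and 2.54 without cells of over 10000 UMIs. The epithelial fold of the mitosis genes (2.54) was 1.44 in set X2, 2.89 without cells of over 10000 UMIs, 4.59 without Smc2 and Smc4 and 2.24 without Mki67. Leaving out named members was chosen after seeing the data. The count of 20 of 27 members (18% of all genes) became 5 of 10 in set X2 (14.5%), 10 of 13 at a minimum of 20 UMIs (13.1%), 37 of 52 with no minimum (20.7%) and 13 of 27 at 3-fold (6.29%). The share of stem cells with a mitosis UMI (81.2%) was 94.1% in set X1 and 56.2% for at least 2 UMIs. Of members with a fold of at least 2, Ube2c (0.787, 0.197 to 2.88) and Cenpa (0.551, 0.0498 to 3.84) were below 1 in set X2 alone. Members with smaller folds went below 1 there too: Mad2l1 (from 1.81 to 0.734), Ccnb2 (from 1.52 to 0.826), Hmgb2 (from 1.41 to 0.649) and Pcna (from 1.08 to 0.551). H2afz went the other way, from 0.952 to 1.32. The set X2 intervals of all these members included 1, so that no change of direction was detectable for any of them. The cause of the differences between the sets was not tested. Joining related barcodes leaves sums and folds as they are. Counting error limits most single genes. No paired analysis was possible because all cells form 1 group without replicates.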

Other observations

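The cells and genes here limit what can be read. The cells with the most UMIs decide several sums, and 3 cells held 53.5% of the mitosis UMIs of the stem cells and 51.0% of their replication UMIs. Within the subclusters, the 106 barcodes become 93 when those of the same set and label that differ at 1 base are joined. The 32 stem cells become 29, the 32 secretory precursors 26 and the 42 absorptive precursors 38.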
